A study of Mus musculus with 2 samples.

Results

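Cycling CD8 T cells of mouse tumours were described here by their share of CD8 T cells and by the genes their RNA held. They were chosen by their RNA counts, as cells with a UMI of Cd8a or Cd8b1 and of a CD3 chain gene (Cd3e, Cd3d or Cd3g), no UMI of Cd4, Foxp3, C1qa or Csf1r, and UMIs of at least 3 of 6 cell cycle genes (Mki67, Top2a, Pclaf, Birc5, Cdk1 and Ccna2). A UMI is a molecular tag that counts 1 captured RNA molecule. The rule found 139 cells among the 14809 that passed the filters, of which 124 were among 7134 PBS cells and 15 among 7675 UDSP-Hep cells. Mice bore subcutaneous tumours of B16F10-OVA, a melanoma line that expresses ovalbumin, and were injected on days 10, 12, 14 and 16 with PBS, a saline buffer, or with UDSP-Hep, an agent that the labels do not describe. On day 19, 3 tumours of each group were taken, leukocytes were sorted on the surface protein CD45, and 10000 cells of each group were loaded for droplet single-cell RNA sequencing (10x Genomics). The labels used here give neither the strain, genotype or age of the mice nor any other agent, and both groups carried the same tumour line. The 3 tumours of a group went into 1 library with no map from cells to tumours, so each group was 1 sample. No difference between the groups could be tested, and the 95% intervals below cover counting error only.

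CD8 T cells recognise peptides on MHC class I molecules and kill the cells that show them, and they divide after their antigen receptor is engaged. In a dividing cell, E2F transcription factors switch on the genes of DNA replication at the entry to S phase. The genes of mitosis are held back by the DREAM complex, which binds the CHR element of their promoters, and are switched on in G2 by B-MYB and FOXM1. In tumours, CD8 T cells that meet antigen for a long time carry checkpoint receptors such as PD-1 (Pdcd1), and cells with features of memory carry TCF-1 (Tcf7) and the interleukin-7 receptor (Il7r).

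The gate without the cycling rule found 521 CD8 T cells with PBS and 434 with UDSP-Hep. The whole libraries held 74685827 and 64241224 UMIs in 7379 and 7872 barcodes, and the median cell that passed the filters held 8115.5 and 5793 UMIs. The libraries shared 25 barcodes, and none was a cycling CD8 T cell. Cycling cells were deeper than the other gated CD8 T cells, with medians of 18869.5 against 6717 UMIs in the PBS library and 19712 against 5318 in the UDSP-Hep library. The 124 PBS cells held 2558844 UMIs together and the 15 UDSP-Hep cells 302581, and the largest single cell held 2.74% and 13.2% of these. Levels below are CPM, the UMIs of a gene as counts per 1000000 UMIs of the cells summed.

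All 6 genes of the T cell marker list were detected in cycling cells of both libraries, with a summed level of 4425 CPM in the PBS and 4336 CPM in the UDSP-Hep library. The rule had asked for CD3 and CD8 genes, so Cd3e at 678 and 638 CPM and Cd8a at 662 and 559 CPM are no check of the label. Of the listed genes that the rule did not use, Trac and Trbc2, the constant regions of the T cell receptor, had a UMI in all 124 PBS and 15 UDSP-Hep cells, and the surface protein gene Thy1 in 123 and 15. RNA of other cell types was also present. The macrophage and monocyte list, of which C1qa and Csf1r were at 0 by the gate, summed to 1279 CPM in PBS and 1791 CPM in UDSP-Hep cycling cells with 10 of its 12 genes detected, against 13354 and 16383 CPM in cells gated as macrophages. The dendritic list summed to 913 and 231 CPM. The CD4 and regulatory T cell list, of which Cd4 and Foxp3 were at 0 by the gate, summed to 329 CPM in PBS and 238 CPM in UDSP-Hep cycling cells. Of its other genes, Cd40lg was at 0 in both libraries and Lrrc32 in UDSP-Hep. Ikzf2 gave 297 and 119 CPM of these sums, and Il2ra was the only other gene detected in UDSP-Hep cycling cells. Noncycling gated CD8 T cells held Ikzf2 at 452 and 443 CPM, so these sums alone do not show RNA of CD4 or regulatory T cells. B cell and melanoma lists stood between 3.13 and 6.61 CPM.

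Cycling cells made up a smaller share of CD8 T cells in the UDSP-Hep library. They were 124 of 521 gated CD8 T cells (23.8%, 95% exact binomial interval 20.2% to 27.7%) with PBS and 15 of 434 (3.46%, 1.95% to 5.64%) with UDSP-Hep, a ratio of 0.145 (Katz log interval 0.0863 to 0.244). As a share of all cells they were 1.74% and 0.195%. Gated CD8 T cells themselves were 7.30% (6.71% to 7.93%) of PBS and 5.65% (5.15% to 6.20%) of UDSP-Hep cells. With every cell thinned to 2000 UMIs, which left out 5 and 15 shallower cells, 74 of 516 (14.3%) and 8 of 419 (1.91%) cells met the cycling rule, a ratio of 0.133 (0.0649 to 0.273). The plot of CD8 T cells by number of cycling genes shows the same order at both depths.

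**Figure D1:**
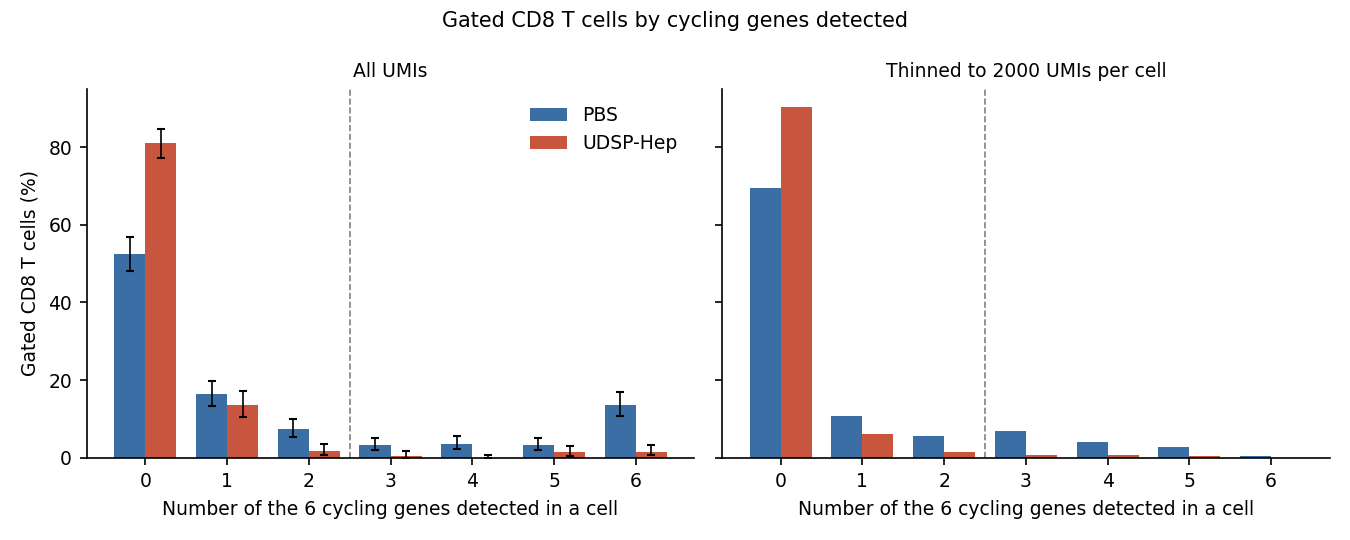
Percent of gated CD8 T cells (y axis) by how many of the 6 cycling genes had a UMI (x axis) in the PBS and UDSP-Hep libraries, with all UMIs and after thinning to 2000 UMIs, bars with 95% exact binomial intervals for all UMIs. With all UMIs, 13.6% of PBS and 1.61% of UDSP-Hep cells held all 6 genes, and 52.4% and 81.1% held none.

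The size of this ratio depended on the 4 genes that the gate did not allow. Before they were applied, 219 PBS and 63 UDSP-Hep cells held at least 3 cycling genes. The 4 genes took out 95 (43.4%) of the PBS and 48 (76.2%) of the UDSP-Hep cells, but 37.4% and 38.1% of the cells with fewer cycling genes. Macrophage genes C1qa or Csf1r were found in 88 and 41 of these cycling cells, and the CD4 lineage genes Cd4 or Foxp3 in 14 and 26. With C1qa and Csf1r allowed, cycling cells were 205 of 767 (26.7%) and 37 of 641 (5.77%), and with all 4 allowed 219 of 853 (25.7%) and 63 of 740 (8.51%), a ratio of 0.332. The UDSP-Hep share was the lower under each of these gates. The part of cells caught together with macrophages in this loss was not tested.

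In the 2 other lymphocyte gates the shares of the libraries lay closer together. Regulatory T cells, gated on a CD3 gene and Foxp3 without Cd8a or Cd8b1, met the cycling rule in 22 of 157 (14.0%, 8.99% to 20.4%) PBS and 27 of 208 (13.0%, 8.73% to 18.3%) UDSP-Hep cells, at median depths of 5580 and 5870 UMIs. Natural killer cells, gated on Ncr1 or Klrb1c without a CD3 gene, met it in 7 of 398 (1.76%, 0.710% to 3.59%) and 14 of 1233 (1.14%, 0.622% to 1.90%). The ratio of UDSP-Hep to PBS shares was 0.926 (0.549 to 1.56) for regulatory T cells and 0.646 (0.262 to 1.59) for natural killer cells, and both intervals include equal shares. After thinning the natural killer ratio was 0.704 (0.246 to 2.01), whose interval overlaps the 0.0649 to 0.273 of CD8 T cells, and the CD8 ratio of 0.332 with all 4 genes allowed lies within the natural killer interval. Whether the ratios differ between gates was not tested. Neutrophils, which do not divide in tissue, met the rule in 0 of 23 and 0 of 407 cells, which allows shares of up to 14.8% and 0.902% by the exact binomial bound, at median depths of 2478 and 2370 UMIs.

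The genes that chose the cells were at similar levels in both libraries, and these values are a description because the rule used them. Mki67, a coat protein of mitotic chromosomes (chr7:135689784-135716361 on GRCm38), stood at 234 CPM in PBS and 202 CPM in UDSP-Hep cycling cells, a ratio of 0.860 (0.650 to 1.12). Top2a, which untangles DNA strands (chr11:98992943-99024189), stood at 685 and 648 CPM, and Pclaf, a partner of the sliding clamp PCNA (chr9:65890237-65903266), at 928 and 1031 CPM. Birc5, a subunit of the chromosomal passenger complex, stood at 282 and 235 CPM and Ccna2, cyclin A2, at 200.1 and 215 CPM. Cdk1, the mitotic kinase, had the lowest ratio of the 6 at 176 against 109 CPM (0.619, 0.421 to 0.882). Gated CD8 T cells outside the rule kept traces of the same genes, with Top2a at 40.1 CPM in PBS and 21.7 CPM in UDSP-Hep. Just inside the threshold, 17 PBS and 2 UDSP-Hep cells held 3 of the genes, with a median of 67.4 and 61.9 UMIs of S and G2/M genes per 10000. Just outside it, 39 and 8 cells held 2, with medians of 47.3 and 40.4.

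The promoters of the cell cycle genes carry the elements named above, and 4 are shown because their genes stand for the mitotic (Cdk1, Ccnb2, Cdc20) and the replication (Mcm3) program described below. They are RefSeq sequences on GRCm38.p6, from 250 bases before to 50 after the transcription start, all on the minus strand, at chr10:69352863-69353162 (Cdk1), chr9:70421505-70421804 (Ccnb2), chr4:118437294-118437593 (Cdc20) and chr1:20820263-20820562 (Mcm3). Capitals mark TTTGAA (the CHR element), CCAAT or its reverse complement ATTGG (the box of NF-Y), and the E2F letters TTTCCCGC (as GCGGGAAA on the other strand) and TTTGGCGC.
Cdk1: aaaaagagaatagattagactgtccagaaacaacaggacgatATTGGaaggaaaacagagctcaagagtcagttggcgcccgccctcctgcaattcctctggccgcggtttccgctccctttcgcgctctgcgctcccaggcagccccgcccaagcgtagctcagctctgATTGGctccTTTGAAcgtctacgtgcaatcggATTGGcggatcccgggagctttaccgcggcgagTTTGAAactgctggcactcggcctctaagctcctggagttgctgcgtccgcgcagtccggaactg
Ccnb2: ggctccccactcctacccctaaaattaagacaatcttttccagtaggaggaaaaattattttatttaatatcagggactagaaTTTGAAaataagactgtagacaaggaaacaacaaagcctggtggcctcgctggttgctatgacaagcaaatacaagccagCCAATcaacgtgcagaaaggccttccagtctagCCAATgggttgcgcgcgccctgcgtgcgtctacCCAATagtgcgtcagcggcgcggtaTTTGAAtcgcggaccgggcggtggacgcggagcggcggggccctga
Cdc20: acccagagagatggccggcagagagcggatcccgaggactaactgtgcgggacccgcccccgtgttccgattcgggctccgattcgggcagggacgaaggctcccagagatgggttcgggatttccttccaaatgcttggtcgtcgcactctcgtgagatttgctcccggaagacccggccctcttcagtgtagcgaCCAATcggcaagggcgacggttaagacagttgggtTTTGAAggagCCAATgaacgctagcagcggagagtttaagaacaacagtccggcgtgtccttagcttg
Mcm3: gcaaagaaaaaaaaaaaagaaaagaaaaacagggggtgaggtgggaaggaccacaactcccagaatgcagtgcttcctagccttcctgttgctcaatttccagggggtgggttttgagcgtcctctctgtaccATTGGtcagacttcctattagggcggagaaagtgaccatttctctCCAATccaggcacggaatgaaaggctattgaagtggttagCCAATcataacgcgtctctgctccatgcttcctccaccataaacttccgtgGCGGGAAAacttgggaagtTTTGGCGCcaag
In Cdk1, TTTGAA lay 71 and 15 bases before the start, with ATTGG 208, 80 and 48 bases before it. Ccnb2 had CCAAT 87, 54 and 21 bases before the start, and TTTGAA 167 bases before and 5 bases after it. Cdc20 had CCAAT 53 and 8 and TTTGAA 18 bases before the start. Mcm3 had no TTTGAA in this window and held the E2F letters 20 and 39 bases after the start. On either strand, TTTGAA was in 28 of 40 (70%) promoters of the G2/M list, in 3 of 37 (8.11%) of the S list and in 17.9% of 32851 promoters of all genes. CCAAT was in 77.5%, 51.4% and 37.4%, and either E2F motif in 2.5%, 29.7% and 1.56%. The promoters came from 37 of the 42 G2/M genes and 32 of the 42 S genes, and a match of letters is a description and not a site.

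Cycling cells of the UDSP-Hep library held relatively more S phase and less G2/M RNA than those of the PBS library. The 42 S genes summed to 5940.2 CPM in PBS and 6999.8 CPM in UDSP-Hep cycling cells (ratio 1.18, 1.13 to 1.23), and the 42 G2/M genes to 4028 and 3196 CPM (0.793, 0.742 to 0.847). G2/M genes gave 40.4% (39.8% to 41.0%) of the UMIs of both lists in the PBS and 31.3% (29.7% to 33.0%) in the UDSP-Hep library. The median cell had 37.8% in PBS (range 2.08% to 94.4%) and 25.1% in UDSP-Hep (range 7.69% to 75.3%), and the ranges overlapped over most of their width. At least 50% of stage UMIs came from G2/M genes in 44 of 124 PBS and 2 of 15 UDSP-Hep cells, and 27 and 1 cells lay within 10 points of that line. The difference in the G2/M share, UDSP-Hep minus PBS, was -9.07 points, and it was -3.73 points with C1qa and Csf1r allowed in the gate and -18.3 points after thinning.

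**Figure D2:**
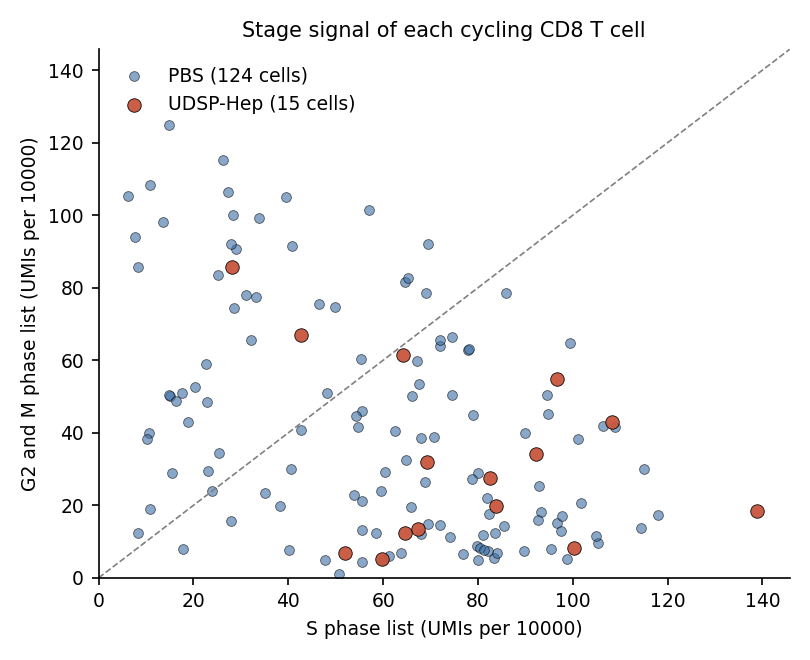
UMIs of the S phase list (x axis) and of the G2/M list (y axis) per 10000 UMIs of the cell, with 1 point for each of 124 PBS and 15 UDSP-Hep cycling CD8 T cells and a diagonal where both are equal. On or above the diagonal lie 44 PBS and 2 UDSP-Hep cells.

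Among S phase genes with at least 50 summed UMIs, 7 of 41 were past 1.5-fold higher and 2 past 1.5-fold lower in UDSP-Hep cycling cells, with a median log2 ratio of 0.23. Over all 6607 genes tested in this comparison, 12.6% were past 1.5-fold higher and 13.7% past 1.5-fold lower. Most summed UMIs were of PBS cells, so which genes reached 50 UMIs was set mostly by that library. Mcm3, a subunit of the replicative helicase, stood at 222 CPM in PBS and 311 CPM in UDSP-Hep (ratio 1.40, 1.11 to 1.74), and its partner Mcm5 at 218 and 344 CPM (1.58, 1.27 to 1.95). Pcna, the sliding clamp of DNA polymerases, stood at 649 and 872 CPM (1.34, 1.18 to 1.53). All 3 lay higher in the UDSP-Hep cells by more than counting error. The ribonucleotide reductase subunit Rrm2 stood at 237 and 330.5 CPM (1.39, 1.12 to 1.72). Past 1.5-fold lower were the exonuclease Exo1 (ratio 0.409) and the polymerase subunit Pole (0.516).

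Genes of entry into the cycle were past 1.5-fold higher in 5 of 14 and past 1.5-fold lower in none, with a median log2 ratio of 0.51. Ccnd3, the D-type cyclin of lymphocytes, stood at 93.4 CPM in PBS and 185 CPM in UDSP-Hep cycling cells (1.98, 1.45 to 2.66). E2f7 (1.81), Foxm1 (1.58), Mybl2 (1.55), which encodes B-MYB, and E2f2 (1.53) were the other 4. In the S list, Ccne2, which drives entry into S phase, was at 36.7 and 79.3 CPM (2.16, 1.32 to 3.41) and E2f1 at 48.5 and 82.6 CPM (1.70, 1.06 to 2.64). Genes of quiescence and arrest were also past 1.5-fold higher in 4 of 13, among them the anti-proliferative gene Btg2 (127 and 324 CPM, ratio 2.56) and the CDK inhibitor Cdkn1a (77.0 and 162 CPM, 2.10). A single UDSP-Hep cell held 46.9% of that library's Cdkn1a UMIs.

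Of the G2/M genes, 13 of 42 were past 1.5-fold lower and none past 1.5-fold higher in UDSP-Hep cycling cells, with a median log2 ratio of -0.33. Ube2c, which passes ubiquitin to mitotic cyclins, stood at 350.5 CPM in PBS and 188 CPM in UDSP-Hep (0.537, 0.404 to 0.703). Cenpf, a kinetochore protein, stood at 162 and 85.9 CPM (0.530, 0.342 to 0.788), and Ccnb1, cyclin B1, at 75.8 and 39.7 CPM (0.523, 0.266 to 0.935). These 3 and the kinase Aurkb (97.3 and 56.2 CPM, ratio 0.577) lay lower beyond counting error. Other genes of mitosis did not: Cdc20, an activator of the anaphase-promoting complex, stood at 84.4 and 85.9 CPM, Kif11, a spindle motor, at 176 and 202 CPM, and Ccnb2 at 144 and 116 CPM. Cdc20 was level only in its sum: it was found in 66 of 124 PBS and 4 of 15 UDSP-Hep cells, with medians of 0.376 and 0 UMIs per 10000. With C1qa and Csf1r allowed in the gate, the G2/M median was 0.01 and Ube2c was at -0.04 on the log2 scale, while Cenpf was at -0.28 and Ccnb1 at -0.30, and the cause of the move was not tested. Without cells holding a UMI of 5 other-cell genes (Lyz2, Cd79a, S100a8, S100a9 and Ncr1), which leaves 52 PBS and 2 UDSP-Hep cells, the G2/M median was 0.40 and Ccnb1 was at 1.09.

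Replication-dependent histones, made in S phase, were past 1.5-fold lower in 14 of 25 and past 1.5-fold higher in 2, with a median of -0.89. Hist1h1b, a linker histone, stood at 166 CPM in PBS and 76.0 CPM in UDSP-Hep (0.459, 0.288 to 0.698), and Hist1h2ae at 275 and 149 CPM (0.541). Hist1h2ap, with 565 and 631 CPM, and Hist1h1c, with 57.4 and 109 CPM, were not lower. Members of the histone clusters are near-identical in sequence, so reads could be split among them, and most of their messages lack the poly(A) tail that 10x capture uses. Of the chromatin and spindle genes, 0 of 23 were past 1.5-fold in either direction (median -0.04).

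Set against the other CD8 T cells of the same library, cycling cells held more RNA of the cell cycle and less of quiescence and memory, which is a description, since the rule used this contrast. In the PBS library 41 of 41 S genes and 41 of 42 G2/M genes were past 1.5-fold higher, where 13.6% of 8482 genes were higher and 15.1% lower. The exception was Pttg1, securin, at 0.814 of the noncycling level. In the UDSP-Hep library 29 of 29 S genes were higher, where 18.5% of 6865 genes were higher and 26.2% lower, and of the 6 G2/M genes that reached 50 UMIs there 5 were higher and Pttg1 was lower. Outside the cycling genes, the stage lists and the histones, the 10 highest over both libraries were Spc24, Cks1b, Stmn1, Asf1b, Mad2l1, Tuba1b, Smc2, Ncapg2, Incenp and Ncapd2. Stmn1, a microtubule regulator, was 10.5 times the noncycling level in PBS and 23.0 times in UDSP-Hep, and Spc24, a kinetochore subunit, 17.8 and 29.4 times. The condensin genes Smc2, Ncapg2 and Ncapd2, whose products compact chromosomes, ranged from 7.98 to 17.3 times.

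Among the 10 lowest in cycling cells by the same rule were Tcf7, Tcp11l2, S1pr1, Klf3, Satb1, Ssh2, Pde2a, Txnip and Gm2682. Tcf7, the factor of naive and memory T cells, was at 0.147 of the noncycling level in PBS and 0.0315 in UDSP-Hep. S1pr1, the receptor by which lymphocytes leave tissue, was at 0.128 and 0.0231. Txnip, which limits glucose uptake, was at 0.268 and 0.184. Of the naive and memory list, 13 of 16 genes in PBS and 14 of 15 in UDSP-Hep were past 1.5-fold lower and none higher. Type I interferon genes were lower in 15 of 18 (median -1.21) and 10 of 15 (median -0.82).

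Of the metabolic lists, 3 were higher in cycling cells of both libraries and that of amino acid and sterol supply was not. Nucleotide and one-carbon synthesis genes were past 1.5-fold higher in 14 of 22 in PBS and 15 of 20 in UDSP-Hep, glycolysis genes in 7 and 10 of 16, and oxidative phosphorylation genes in 5 and 10 of 20, with none of these lower. Amino acid and sterol supply genes were past 1.5-fold higher in 6 of 16 and lower in none in PBS (median 0.34), but higher in 1 and lower in 3 of 10 in UDSP-Hep (median -0.29). Among glycolytic enzymes, Gapdh was 1.56 and 1.95 times and Tpi1 1.77 and 2.96 times the noncycling level. The checkpoint list was near the noncycling level in PBS (0 of 17 higher, 2 lower, median 0.05) and higher in UDSP-Hep (6 of 14 higher, 1 lower, median 0.49). Of the cytotoxic list, 1 of 21 genes was higher and 7 were lower in PBS, and 5 of 22 were higher and 4 lower in UDSP-Hep. Gzmb, granzyme B, was 1.25 times the noncycling level in PBS and 3.31 times in UDSP-Hep, and Havcr2, the checkpoint receptor TIM-3, 1.31 and 3.04 times. The plot of cycling over noncycling ratios gives each gene of 11 lists.

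**Figure D3:**
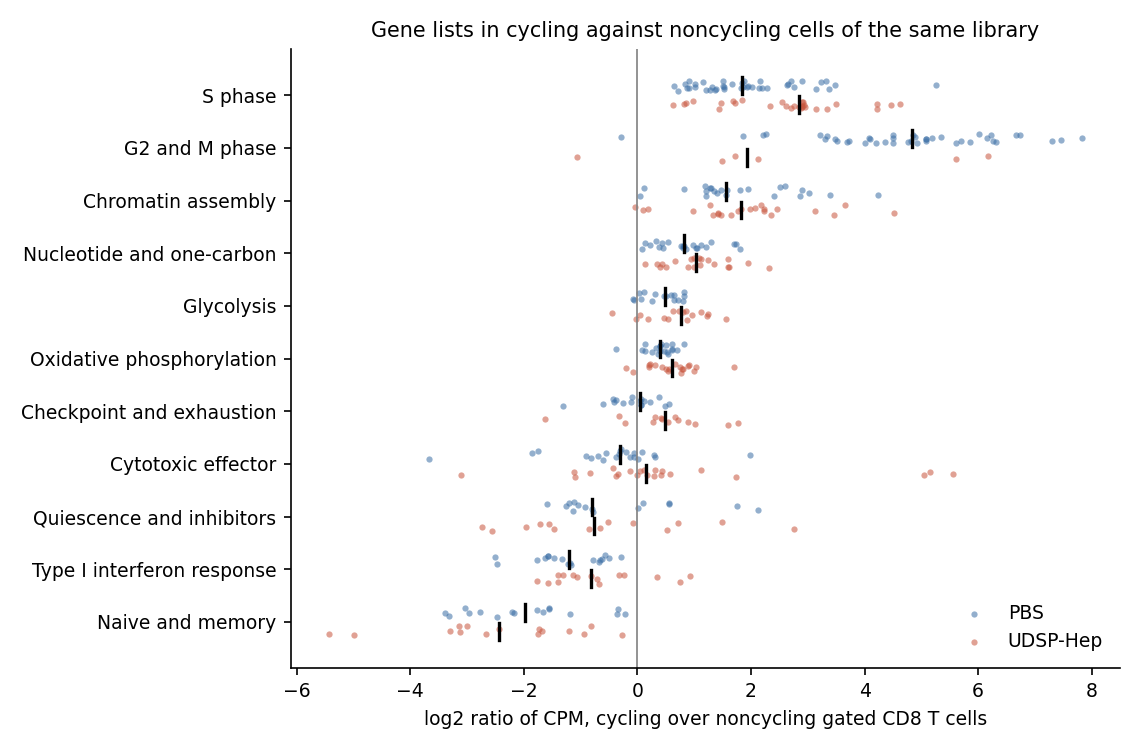
Log2 ratio of CPM in cycling over noncycling gated CD8 T cells (x axis) for the tested genes of 11 lists (y axis), 1 point per gene and library with the list median as a bar. Cell cycle lists lie to the right and the naive and memory list to the left, at medians of -1.97 in PBS and -2.43 in UDSP-Hep.

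At full depth, most cycling cells held checkpoint rather than memory genes. A cell was counted as checkpoint if it held at least 2 of Pdcd1, Tox, Havcr2 and Lag3, and as memory if it held at least 2 of 5 memory genes that include Tcf7, Il7r, S1pr1 and Lef1, so these are ranges of detected genes and not cell types. Of the cycling cells, 78.2% in PBS and 73.3% in UDSP-Hep were checkpoint only, 13.7% and 20% were both, and 3.23% and 6.67% were memory only. Among noncycling cells, checkpoint only were 47.4% and 22% and memory only 34.8% and 50.8%. Cycling cells were deeper, and after thinning to 2000 UMIs 45.9% of PBS and 37.5% of UDSP-Hep cycling cells were checkpoint only, 54.1% and 62.5% held neither, and none was memory only. Of noncycling cells, 35.7% and 16.5% were then checkpoint only and 22.6% and 40.6% memory only. Within the checkpoint-only cells, 97 of 285 (34.0%, 28.6% to 39.9%) PBS and 11 of 103 (10.7%, 5.45% to 18.3%) UDSP-Hep cells were cycling. Within the memory-only cells, 4 of 142 (2.82%, 0.773% to 7.06%) and 1 of 214 (0.467%, 0.0118% to 2.58%) were. After thinning, 34 of 192 (17.7%) PBS and 3 of 71 (4.23%) UDSP-Hep checkpoint-only cells were cycling, and none of the 100 and 167 memory-only cells, which allows up to 3.62% and 2.18%. Cells that held neither were then cycling in 40 of 214 (18.7%) PBS and 5 of 175 (2.86%) UDSP-Hep cells, near the checkpoint-only shares. Of cells that held both, 0 of 10 and 0 of 6 were. The UDSP-Hep share was lower within the checkpoint-only cells at both depths. Near the line, 8 PBS and 1 UDSP-Hep cycling cells held exactly 1 checkpoint gene and 8 and 1 held exactly 2.

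**Figure D4:**
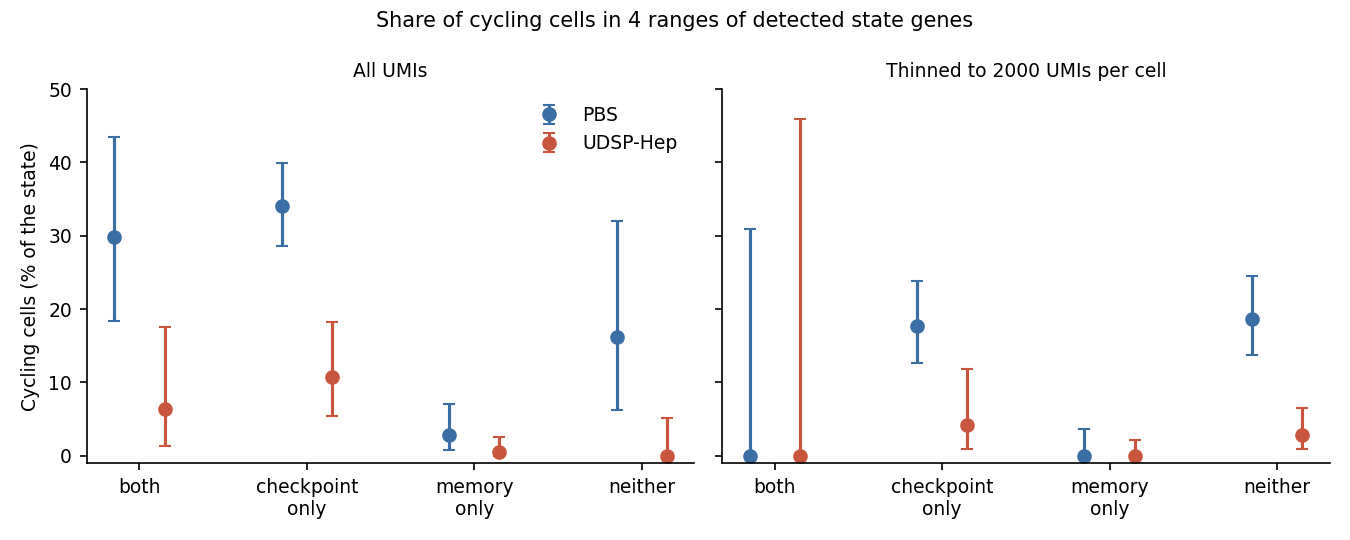
Percent of gated CD8 T cells that were cycling (y axis) by detected checkpoint and memory genes (x axis) in both libraries, with all UMIs and after thinning to 2000 UMIs, and 95% exact binomial intervals. With all UMIs, checkpoint-only cells were at 34.0% in PBS and 10.7% in UDSP-Hep, and memory-only cells at 2.82% and 0.467%.

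The few cycling cells of the UDSP-Hep library held more RNA of killing genes. Cytotoxic genes summed to 5491 CPM in PBS and 11412 CPM in UDSP-Hep cycling cells (2.08, 2.0 to 2.16), with 12 of 19 genes past 1.5-fold higher, none lower and a median log2 ratio of 0.80. Gzma and Gzmf gave 1302 and 1272 CPM of the UDSP-Hep sum, against 148 and 120 CPM in PBS. A single UDSP-Hep cell held 78.4% of the Gzma UMIs and another held 76.4% of the Gzmf UMIs. The sum and its interval therefore lean on single cells. In noncycling cells the same list had 6 of 23 higher and 3 lower (median 0.29), where 8.96% of 8491 genes were higher and 5.65% lower. Gzmb, the serine protease that starts death of the target cell (chr14:56258838-56262260), stood at 907 CPM in PBS and 2224 CPM in UDSP-Hep (2.45, 2.25 to 2.67). It was found in 106 of 124 and 15 of 15 cycling cells, with medians of 6.16 and 16.6 UMIs per 10000, and the 2 ranges overlapped. Cells gated as macrophages, which should lack Gzmb, stood at 8.5 and 42 CPM. Prf1, the pore-forming protein perforin, stood at 377 and 793 CPM (2.10, 1.82 to 2.43), but its medians of 1.53 and 1.75 UMIs per 10000 were close, so the difference lay in part of the cells. With C1qa and Csf1r allowed in the gate, Gzmb was at 0.67 on the log2 scale in place of 1.29, and it was at -0.41 without cells with other-cell genes, which leaves 2 UDSP-Hep cells. With at least 4 cycling genes asked for, Prf1 was at 0.38.

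Receptors shared with natural killer cells were higher in the UDSP-Hep cells, in their sums and in their medians over cells. Klrc1, which encodes the inhibitory receptor NKG2A, stood at 386 CPM in PBS and 810 CPM in UDSP-Hep (2.10, 1.82 to 2.41), with medians of 3.57 and 8.12 UMIs per 10000. Its partner Klrd1, CD94, stood at 431 and 720.5 CPM (1.67, 1.44 to 1.93), and Klrk1, the activating receptor NKG2D, at 167 and 367 CPM (2.19, 1.76 to 2.71). Their medians were 3.59 and 6.96, and 1.41 and 3.33, UMIs per 10000. The death ligand gene Fasl (1.84) and the effector transcription factors Tbx21 (1.74) and Zeb2 (1.73) were also past 1.5-fold. Other killing genes were level: Nkg7, a granule membrane protein, stood at 1496 and 1477 CPM and the cytokine Ifng at 279 and 264 CPM. The marker list of natural killer cells, of which 7 of 9 genes were detected in each library, was also higher in its sum. It summed to 327 CPM in PBS and 479 CPM in UDSP-Hep cycling cells. Noncycling gated CD8 T cells held 536 and 663 CPM of it, and cells gated as natural killer cells 6794 and 6515 CPM. Cells gated as macrophages held 3545 and 3394 CPM and those gated as neutrophils 6827 and 6306 CPM, so the list is not particular to natural killer cells. Eomes, also on this list, went the other way, at -1.69 on the log2 scale. Tyrobp, a signalling adaptor of innate cells, stood at 51.2 and 149 CPM (2.90, 2.02 to 4.10) in 47 and 7 cells. Klrb1c stood at 11.7 and 52.9 CPM and Ncr1 at 0.782 and 56.2 CPM, with 93.8% and 100% of the UDSP-Hep UMIs in 1 cell, while Klra8 was at 0 in both libraries and Klra7 at 0 in UDSP-Hep. Their part in these ratios was not tested.

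**Figure D5:**
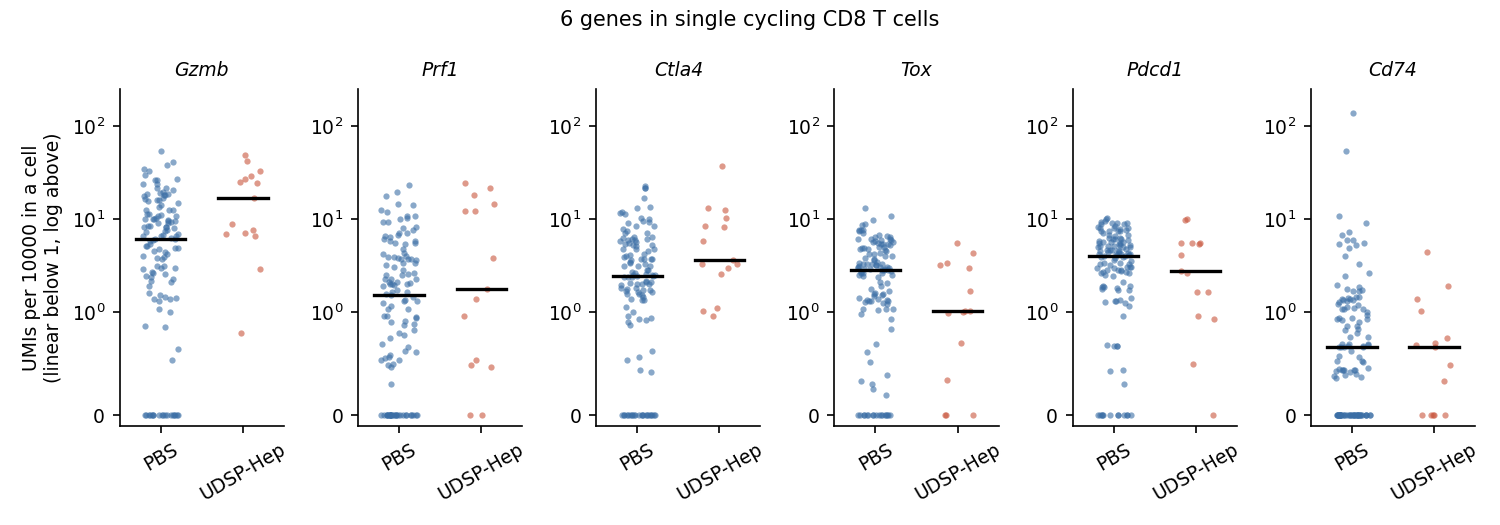
UMIs per 10000 UMIs of the cell (y axis, linear below 1 and logarithmic above) of Gzmb, Prf1, Ctla4, Tox, Pdcd1 and Cd74 in 124 PBS and 15 UDSP-Hep cycling CD8 T cells, with medians as bars. Median Gzmb was 6.16 in PBS and 16.6 in UDSP-Hep, median Tox 2.83 and 1.01, and the points of the libraries overlap for all 6 genes.

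The largest ratios among granzymes rested on single cells. Gzma stood at 148 and 1302 CPM, but 1 of 15 UDSP-Hep cells held 78.4% of its UMIs. Gzmc (59.0 and 585 CPM), Gzmd (3.13 and 142 CPM) and Gzmf (120 and 1272 CPM), which are related genes, came to 88.1%, 69.8% and 76.4% from 1 cell. That cell held 30189 UMIs, of them 96 of CD3 and CD8 genes and 71 of the macrophage and monocyte list, and its doublet score of 0.0280 was not among the highest. Chemokine genes were past 1.5-fold higher in 3 of 5 and lower in 1, and the inflammatory chemokines had the same form, with Ccl3 at 608 and 1348 CPM and Ccl4 at 1317 and 2994 CPM, and 61.0% and 52.1% of the UDSP-Hep UMIs in 1 cell. The chemokine median of 1.15 turned to -0.26 without the highest doublet scores, where Ccl3 was at 0.15 on the log2 scale, and to -0.023 with C1qa and Csf1r allowed, where Ccl3 was at -0.10. Macrophage-gated cells held Ccl4 at 1057.5 and 1347 CPM. Ccl5 was at 1581 and 1177 CPM and Xcl1, which attracts cross-presenting dendritic cells, at 0.493 of the PBS level.

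Checkpoint receptors differed in direction among themselves. Of the list, 4 of 15 were past 1.5-fold higher and 2 past 1.5-fold lower in UDSP-Hep cycling cells (median 0.23). Ctla4, which competes for the costimulatory ligands of CD28, stood at 350.2 CPM in PBS and 711 CPM in UDSP-Hep (2.03, 1.74 to 2.36), with medians of 2.44 and 3.65 UMIs per 10000. Cd244a, the receptor 2B4, stood at 45.7 and 126 CPM (2.75, 1.85 to 3.99), and macrophage-gated cells held it at 46.6 and 48.9 CPM. Cd160 (2.05) and Cd200r1 (1.6) were the other 2. Tox, the nuclear factor of the exhausted state, stood at 308 and 182 CPM (0.590, 0.440 to 0.775), and its medians were 2.83 and 1.01 UMIs per 10000. Pdcd1 stood at 410.0 and 294 CPM (0.717, 0.571 to 0.891), short of 1.5-fold. Eomes, a T-box factor of effector and exhausted cells, stood at 95.7 and 29.7 CPM (0.311, 0.140 to 0.599), and at 0.81 on the log2 scale in the 2 UDSP-Hep cells left without other-cell genes. Havcr2 (150 and 165 CPM) and Lag3 (222 and 268 CPM) were level.

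Memory genes were low in cycling cells of both libraries. Of the naive and memory list, 1 of 10 was past 1.5-fold higher and 3 past 1.5-fold lower. Tcf7 stood at 23.4 CPM in PBS, in 13 of 124 cells, and at 9.91 CPM in UDSP-Hep, in 2 of 15 (ratio 0.423, 0.0848 to 1.30), which counting error covers. Il7r stood at 25 and 116 CPM (4.62, 2.97 to 7.09) in 22 and 7 cells, and macrophage-gated cells held it at 136.3 and 139.8 CPM, above both. Il2ra, the high-affinity chain of the interleukin-2 receptor, stood at 29.7 and 119 CPM (4.01, 2.62 to 6.03) in 32 and 8 cells, with 2.4 and 5.0 CPM in macrophage-gated cells. Il2ra is also on the marker list of CD4 and regulatory T cells, and the part of such cells in its ratio was not tested. Il2rb, the chain shared with interleukin-15, stood at 1115 and 1332 CPM. Stat5a, which carries the signal of both cytokines, was at 55.5 and 13.2 CPM (0.238, 0.0640 to 0.623) from 55 and 3 cells, and at 1.40 on the log2 scale without cells with other-cell genes. In all, 5 of 21 cytokine receptor and signalling genes were past 1.5-fold higher and 1 lower.

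T cell receptor signalling genes were level between the libraries, with 1 of 23 past 1.5-fold higher, 1 lower and a median of -0.02. Immediate early genes, induced within minutes of a signal or of tissue handling, were past 1.5-fold higher in 9 of 21 and lower in 1 (median 0.43), and in noncycling cells in 10 of 22 and 1 (median 0.41). Junb, an AP-1 subunit, stood at 494 CPM in PBS and 975 CPM in UDSP-Hep cycling cells and Dusp1, a phosphatase of MAP kinases, at 261 and 532 CPM. Macrophage-gated cells held Junb at 1724 and 2280 CPM. Costimulatory receptors were past 1.5-fold higher in 1 of 9, which was Icos, at 134 and 297 CPM (2.22, 1.74 to 2.81). Egr3, an early response factor, was at 15.2 and 126 CPM, and all of its UDSP-Hep UMIs came from 1 cell.

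Targets of interferon gamma were past 1.5-fold higher in 8 of 17 genes and lower in none (median 0.52), and those of type I interferon higher in 1 and lower in 3 of 10 (median 0.01). The GTPase gene Igtp stood at 40.3 CPM in PBS and 139 CPM in UDSP-Hep cycling cells (3.45, 2.35 to 4.98) and the transcription factor Irf1 at 106 and 188 CPM (1.79). Ifi27l2a, a type I interferon target, stood at 830 and 476 CPM (0.574, 0.481 to 0.679). Without each gene's largest cell in each library, the interferon gamma median was 0.07. That setting takes 1 of 15 UDSP-Hep but 1 of 124 PBS cells from each gene, so it lowers most ratios by design.

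Genes of sterol synthesis and amino acid supply were past 1.5-fold lower in 9 of 14 and higher in none (median -0.71). The list median did not keep this direction after thinning, where it was 1.11. Thinning left fewer UMIs, and only list members that still reached the minimum of summed UMIs entered that median. Their number is not given here, so the thinned median does not show that the genes named below reversed. Without cells with other-cell genes the list median was 0.28 and Hmgcs1 was at 1.25 on the log2 scale. Hmgcs1, an early enzyme of cholesterol synthesis, stood at 68.4 CPM in PBS and 19.8 CPM in UDSP-Hep (0.290, 0.105 to 0.644), in 75 of 124 and 4 of 15 cells. The fatty acid synthase gene Fasn stood at 57.1 and 23.1 CPM (0.405), and Insig1 (0.313), Sqle (0.373), Fdps (0.470) and Idi1 (0.523) of the sterol pathway were lower too, though the intervals of Sqle (0.0751 to 1.14) and Fdps (0.169 to 1.06) include equal levels. In noncycling cells 2 of 15 of these genes were lower and 1 higher. Oxidative phosphorylation genes were past 1.5-fold in 0 of 20 (median -0.02). Glycolysis genes were past 1.5-fold higher in 2 of 16 and lower in none, while Gapdh stood at 2474 and 1828 CPM, a ratio of 0.739. Nucleotide and one-carbon genes were higher in 2 and lower in 2 of 22, heat shock genes higher in 2 and lower in 1 of 13, and genes of migration and residence higher in 4 and lower in 1 of 17.

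The 12 genes with the highest ratios by the naming rule were Mmp12, Gzmd, Mmp13, Ccl9, Ifitm1, Ccl6, Gzmf, Gzmc, Gzma, Il6, Osm and Ier3, and 3 of the 15 UDSP-Hep cells led them all. Mmp12, a macrophage elastase, stood at 6.64 CPM in PBS and 582 CPM in UDSP-Hep, with 98.9% of the UMIs in 1 cell. That cell, which also led Mmp13 and Gzma, held 43 UMIs of the macrophage and monocyte list and 36 of CD3 and CD8 genes, and the highest doublet score of the 15 (0.163). A cell of 21498 UMIs led Ccl9, Ifitm1, Ccl6, Il6, Osm and Ier3, held 34 of the 36 basophil and eosinophil list UMIs of the library's cycling cells, and had the next score (0.153). Both were among the highest doublet scores of the library, as were 7 of 124 PBS cycling cells. These values stand beside the ratios, and the part of captured cell pairs in them was not tested.

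The 12 genes with the lowest ratios were Cd74, Fscn1, Pkib, Cst3, Gm42031, Ccr7, Marcks, Tbc1d4, H2-Eb1, H2-Aa, Marcksl1 and Ikzf2. Most are known in dendritic cells: Cd74, the invariant chain of MHC class II, stood at 480.3 CPM in PBS and 66.1 CPM in UDSP-Hep, but the medians were 0.658 and 0.663 UMIs per 10000, and 1 PBS cell held 44.7% of its UMIs. That cell and 1 other held 844 and 663 of the 2337 dendritic list UMIs of the PBS cycling cells, beside 64 and 130 UMIs of CD3 and CD8 genes. The first led 5 of the 12 genes, and its doublet score of 0.121 was not among the highest of the library. The other held 70197 UMIs and led 6 of the genes, and its score of 0.15 was among the highest. The cell that led Ikzf2 had the highest score of the PBS cycling cells (0.263). The part of captured cell pairs in these ratios was not tested. Fscn1, which bundles actin in mature dendritic cells, stood at 52.8 CPM in PBS and had no UMI in UDSP-Hep. Its ratio was 0.188 with a floor of 3 counts over the 15 cells, and its 95% interval reached up to 0.234. Of the dendritic list, 10 of 10 genes were detected in PBS and 6 of 10 in UDSP-Hep cycling cells, where Clec9a, Fscn1, Siglech and Xcr1 were at 0. Ikzf2, which encodes the transcription factor Helios, was spread more widely, at 297 and 119 CPM (0.40, 0.278 to 0.559), in 95 of 124 and 9 of 15 cells, with 4.86% of the PBS UMIs in the largest cell. Gm42031, a gene model of no described role, stood at 219 and 36.4 CPM in 94 and 5 cells, with 6.95% in the largest.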

How the data were processed

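The authors deposited raw UMI counts, 1 matrix of 32285 genes for each library. They used Cell Ranger 7.0.0, named in the file headers and in the submitters' processing notes, which also give mm10 and Seurat, without a role for the latter. Barcodes with fewer than 200 detected genes, fewer than 500 UMIs or 10% or more mitochondrial UMIs were dropped, 245 in PBS and 197 in UDSP-Hep. No doublets were removed. Scrublet, run with scanpy 1.11.5, marked 0.0138% and 0.0129% of barcodes by its own threshold, so in an alternative the highest 418 and 484 scores were left out.

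UMIs of the cells of a library were summed and given as CPM, with ratios between libraries or between cycling and noncycling cells (numpy 2.4.6, scipy 1.17.1, pandas 2.3.3). Intervals are at 95%: exact Poisson for CPM, exact conditional binomial for ratios of CPM, Clopper-Pearson for shares and Katz for ratios of shares. Genes with at least 50 summed UMIs entered the counts, and a gene was counted at 1.5-fold or more. With 1 library per group there was no test. Thinning drew 2000 UMIs per cell without replacement. A count of 0 was given a floor of 3 counts. The steps were tested on simulated data.

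The members, the 22 gene lists, the 13 marker lists and the rules were chosen with earlier results of these data known. Named genes had at least 50 CPM in the higher library and were ranked by the interval bound nearest to equality, the 12 highest and 12 lowest between libraries, and the 10 highest and 10 lowest, by the lesser bound over both libraries, between cycling and noncycling cells, the latter outside the rule genes, the S and G2/M lists and the histones. Mitochondrial, ribosomal protein, haemoglobin, immunoglobulin, T cell receptor segment and gate genes, Xist, Tsix and Y-linked genes were left out, and list members are named as examples. Aldoa and Mx1, whose symbols are not unique in the files, were left out of lists. Coordinates of genes came from GENCODE on GRCm38 and promoters from RefSeq. Some genes that entered the counts are not reported here by name.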

Additional observations from a re-analysis of the deposited data

Results flagged for a closer look

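For 13 genes the ratio of UDSP-Hep to PBS was past 1.5-fold in opposite directions in cycling and in noncycling gated CD8 T cells. The difference between the 2 kinds of cell was not tested, since each group had 1 library. Replication genes and their regulators were higher with UDSP-Hep in cycling and lower in noncycling cells: on the log2 scale Mcm5 was at 0.66 and -1.0, Chaf1b at 0.83 and -0.94, E2f1 at 0.77 and -0.84 and E2f2 at 0.62 and -1.41. In the noncycling cells 17 of 34 S genes were past 1.5-fold lower and 1 higher. Noncycling cells are those the cycling rule left, and 39 PBS but 8 UDSP-Hep cells of them held 2 cycling genes. These had medians of 47.3 and 40.4 UMIs of S and G2/M genes per 10000, against 12.2 and 13.9 in cells with none. Their part in the noncycling ratios was not tested. The receptor genes Cd244a, at 1.46 and -0.73, and Cd200r1, at 0.68 and -1.29, were also higher in cycling and lower in noncycling cells. The memory factors Tcf7, at -1.24 and 0.98, and Lef1, at -0.77 and 0.79, and the chemokine gene Xcl1, at -1.02 and 0.64, had the opposite form, and Tcf7 had a UMI in only 2 of the UDSP-Hep cycling cells. The granzymes Gzmd, at 5.51 and -3.73, and Gzmf, at 3.4 and -2.43, the heat shock gene Hspa1b, at 0.61 and -2.04, and Il6, at 3.24 and -2.28, rested on 1 of the 15 UDSP-Hep cycling cells for 69.8%, 76.4%, 92.3% and 97.9% of their UMIs.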

How the results depend on the processing

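No paired analysis was possible because each group had 1 library, and for the same reason no replicate could be left out. The lower cycling share kept its direction in all alternatives. Its ratio was 0.0631 without cells holding a UMI of Lyz2, Cd79a, S100a8, S100a9 or Ncr1, which leaves 52 and 2 cycling cells, and 0.332 with all 4 excluded genes allowed, an alternative chosen after seeing the data, as were those with C1qa and Csf1r allowed and without each gene's largest cell. Ratios below are log2, UDSP-Hep over PBS. The G2/M share difference was -6.38 points without the highest doublet scores, -18.3 thinned, -29.0 without cells with other-cell genes and -3.73 with C1qa and Csf1r allowed. Genes past 1.5-fold, 832 higher and 902 lower, were 100 and 134 thinned, where fewer UMIs were counted, 1381 and 1450 at 20 summed UMIs, 5547 and 1610 at 1 UMI, 301 and 2065 without each gene's largest cell, and 583 lower without other-cell genes. Cycling against noncycling, thinning left 532 higher and 580 lower in PBS, and 643 and 796 in UDSP-Hep. The G2/M median was -1.49 thinned, and without other-cell genes the medians were 0.40 for G2/M, 0.96 for S and 0.28 for sterol genes. The sterol median was 1.11 thinned. Thinned medians cover only the list members that still reached the minimum of summed UMIs. The chemokine median was -0.26 without the highest doublet scores and -0.023 with C1qa and Csf1r allowed, where the naive and memory median was 0.70. Of the gene values under alternatives, 449 were counted as the same, 141 as moved and 23 as reversed. Values counted as the same were not always close: Ccnb1 went from -0.93 to -0.30 with C1qa and Csf1r allowed. Some genes short of 1.5-fold in the main setting changed sign and are not among the 23. Examples are Hspa1a, from 0.36 to -4.87 without the highest doublet scores, and Havcr2, from 0.14 to -0.14 at 4 cycling genes. Reversed were Tcf7 (0.39) at 2 cycling genes; Ier3 (-0.58) and Hspa1b (-2.82) without the highest doublet scores; Gzmf (-1.88), Gzma (-0.50), Marcks (0.53), Tbc1d4 (0.56), Gzmb (-0.41), Ccl3 (-1.27), Eomes (0.81), Stat5a (1.40), Ccnb1 (1.09), Hspa1b (-2.96) and Hmgcs1 (1.25) without other-cell genes; Ccl9 (-0.15), Marcksl1 (1.12), Ccl3 (-0.10), Tcf7 (0.33) and Hspa1b (-0.96) with C1qa and Csf1r allowed; and Mmp13 (-0.50), Osm (-2.59), Ier3 (-0.94) and Hspa1b (-2.69) without the largest cell. The setting without the largest cell takes 1 of 15 UDSP-Hep but 1 of 124 PBS cells from each gene and keeps the totals. It therefore lowers most ratios by design, with 301 genes higher and 2065 lower. Beyond the loss of cells or UMIs, the cause of the reversals was not tested. Depth limits the UDSP-Hep values, with 15 cells.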

Other observations

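T cell receptor beta variable segments were found in few cells, since the library was not enriched for them. A UMI of a Trbv gene was present in 24 of 124 PBS cycling CD8 T cells, over 12 segments, with Trbv19 in 5 and Trbv13-1 in 3. In the UDSP-Hep library it was present in 2 of 15, with Trbv15 in 1 cell and Trbv19 in the other. Among noncycling gated CD8 T cells it was present in 30 of 397 PBS cells, with Trbv16 the most frequent in 6, and in 35 of 419 UDSP-Hep cells, with Trbv12-2 in 7.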
